A study of Mus musculus with 24 samples.

Results

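The ligands, receptors and latent binding proteins of transforming growth factor beta (TGF-beta), a growth factor that controls matrix and smooth muscle in the vessel wall, were read across 24 libraries of mouse thoracic aorta. They are 10 genes: the ligands Tgfb1, Tgfb2 and Tgfb3, the receptors Tgfbr1, Tgfbr2 and Tgfbr3, and the latent binding proteins Ltbp1, Ltbp2, Ltbp3 and Ltbp4. They were taken by gene symbol, and each of the 10 symbols matched 1 of the 25941 rows of the count table. All 10 passed the filter on low counts, so each stands among the 14451 genes tested. PolyA RNA was sequenced from the aortas of adult male wild-type C57BL/6 mice, 10 to 12 weeks old, collected at zeitgeber time 11, which is counted in hours from lights on. For 3 weeks, mice ate chow with celecoxib at 100 mg/kg/day, chow with rofecoxib at 50 mg/kg/day or plain chow as controls. There were 8 libraries per group. Each drug selectively blocks the inducible form of cyclooxygenase, which Ptgs2 encodes. Their doses differed, so a difference between the drug groups is a difference between these doses of these drugs. The series describes the 8 libraries of a group as biological replicates, although the labels do not tie a library to an animal. If some shared an animal, the p-values describe spread among libraries that may be technical.

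TGF-beta ligands are secreted as dimers still held by their own propeptides, a complex that is latent. In the cell this complex is usually joined to a latent binding protein, which anchors it to fibrillin microfibrils of the matrix, and integrins or proteases later free the ligand. Free ligand binds the type II receptor Tgfbr2, which phosphorylates the type I receptor Tgfbr1, and Tgfbr1 in turn phosphorylates the transcription factors Smad2 and Smad3. In humans, inherited variants in several of these genes, both receptor kinases among them, cause aneurysms of the thoracic aorta.

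The promoters of 3 of the genes are shown because Tgfb1 and Ltbp2 were called in the same direction between the drugs while Tgfb2, another ligand, was not called in any comparison. Each sequence holds the 250 bases before the RefSeq transcription start, in GRCm38.p6 coordinates, written in the direction of transcription. They lie at chr7:25686752-25687001 on the + strand for Tgfb1, chr12:84876492-84876741 on the - strand for Ltbp2 and chr1:186705990-186706239 on the - strand for Tgfb2. Capitals mark matches on either strand to GGGCGG (the GC box), CAGAC (a short SMAD-binding element), TATAAA (the TATA box) and CACGTG (an E-box).
Tgfb1: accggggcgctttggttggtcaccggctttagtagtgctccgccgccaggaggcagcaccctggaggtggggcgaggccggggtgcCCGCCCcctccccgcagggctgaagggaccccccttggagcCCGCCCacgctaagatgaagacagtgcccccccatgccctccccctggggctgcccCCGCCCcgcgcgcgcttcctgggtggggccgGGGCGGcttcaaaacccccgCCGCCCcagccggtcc
Ltbp2: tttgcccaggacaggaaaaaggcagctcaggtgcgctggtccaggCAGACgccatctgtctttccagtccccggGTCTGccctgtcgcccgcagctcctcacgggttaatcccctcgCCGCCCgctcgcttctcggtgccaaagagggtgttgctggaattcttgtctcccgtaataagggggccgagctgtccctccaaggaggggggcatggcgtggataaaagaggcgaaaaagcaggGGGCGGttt
Tgfb2: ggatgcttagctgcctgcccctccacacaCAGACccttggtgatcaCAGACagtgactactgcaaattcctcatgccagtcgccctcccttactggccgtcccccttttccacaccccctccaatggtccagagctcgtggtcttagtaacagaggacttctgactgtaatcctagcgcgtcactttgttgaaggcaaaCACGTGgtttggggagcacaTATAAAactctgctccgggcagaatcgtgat
The Tgfb1 window was 75.2% G and C and held 5 matches to GGGCGG and none to the other motifs. The Ltbp2 window, at 61.6% G and C, held 2 matches to GGGCGG and 2 to CAGAC. The Tgfb2 window, at 53.6% G and C, held 2 matches to CAGAC, 1 to TATAAA and 1 to CACGTG. Overlapping matches were each counted. Of 32851 promoter windows of the same length, whose median GC content was 52.4%, 32.7% held GGGCGG, 42.2% CAGAC, 12.4% TATAAA and 6.02% CACGTG. These matches describe the letters in the windows, and 8 of the 10 genes had a window in the RefSeq table. The windows not shown did not all follow the calls. Ltbp3, also called higher with celecoxib, had a window with 47.2% G and C and 0 matches to GGGCGG. The windows of Ltbp4, called likewise, held 3 to 7. Of the genes not called, Tgfbr1 had windows with 74.8% and 52.8% G and C that held 2 and 0 matches. Those of Tgfbr2 and Ltbp1 held 0.

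Each library held between 21652432 and 21687906 counts, and the raw counts of the 10 genes ran from 595 for Tgfb1 to 44092 for Ltbp4 in a single library. Smooth muscle markers summed to 34385 CPM or more in every library, against at most 18.8 CPM for skeletal muscle markers. CPM here are counts relative to library sizes scaled by trimmed means (TMM). Rofecoxib 2 carried cardiac muscle markers at 526 CPM, against at most 60.4 CPM in the other groups, and control 6 carried brown adipocyte markers at 1981 CPM and white or general adipocyte markers at 6083 CPM. Libraries also differed in GC slope, the change in log2 CPM per unit of transcript GC fraction. The slope ran from -0.88 to 1.55 in controls, from -0.65 to 2.07 with celecoxib and from -2.91 to -0.15 with rofecoxib. The extremes were celecoxib 7 and celecoxib 8 at the top (2.07 and 1.91) and rofecoxib 8 and rofecoxib 7 at the bottom (-2.91 and -2.34).

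In control aortas the latent binding proteins Ltbp4 and Ltbp1 were the most abundant of the 10 transcripts per length, and Tgfb3 was the leading ligand. Levels per length are TMM-scaled CPM per kb of the longest coding transcript. Ltbp4, which is also needed for elastic fibre assembly, led at 283 ± 32.1 (SD, n = 8). Ltbp1 followed at 141 ± 13.9 and Ltbp3 at 119 ± 9.30, and the control ranges of Ltbp1 and Ltbp3 overlapped. Tgfb3 came next at 75.5 ± 8.16, below every Ltbp3 value and above every Tgfbr1 value. The other 6 genes formed a run in which each neighbour overlapped the next, from Tgfbr1 at 35.7 ± 5.14 and Tgfbr2 at 34.0 ± 2.70 through Tgfb2 at 27.3 ± 5.57, Ltbp2 at 21.8 ± 2.52 and Tgfbr3 at 20.8 ± 2.13 to Tgfb1 at 17.3 ± 1.27. With all annotated exons as the length, Tgfb3 stayed at 75.5 while Ltbp3 came to 68.3, so these neighbours changed places. Tgfbr1 (31.5) and Tgfbr2 (33.6) did so too, as did Ltbp2 (18.1) and Tgfbr3 (19.3).

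**Figure D1:**
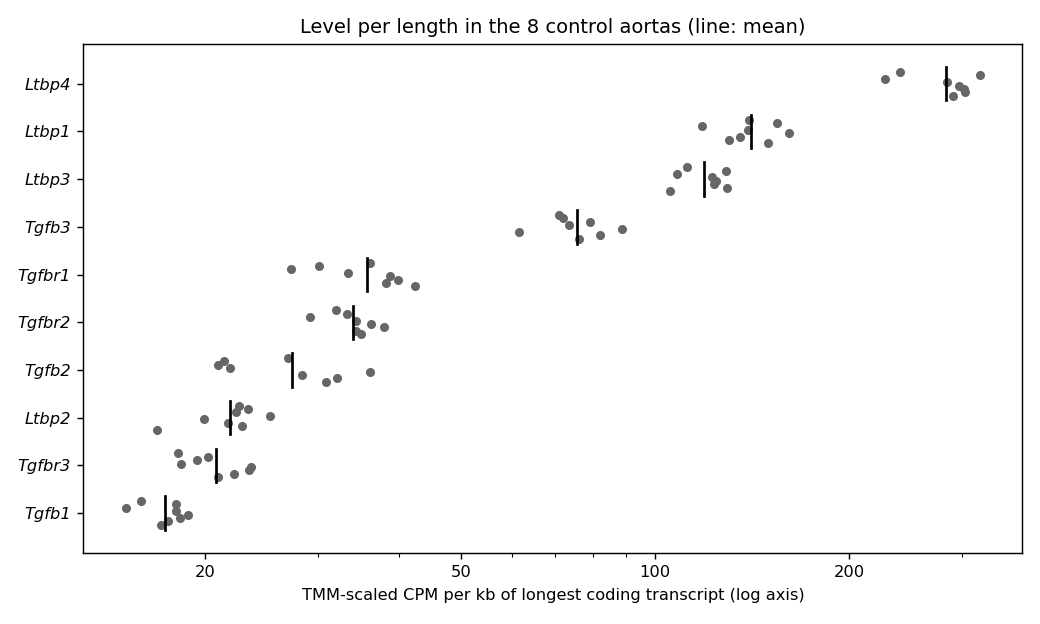
Level of each gene in the 8 control libraries, as TMM-scaled CPM per kb of longest coding transcript on a log axis. Points are libraries and the line is the mean. Ltbp4 stands alone at 283, Ltbp1 and Ltbp3 overlap, and the 6 genes from Tgfbr1 to Tgfb1 lie between means of 35.7 and 17.3.

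Of the summed ligand level per length, Tgfb3 made up 62.9% ± 3.40 in controls, 68.7% ± 4.97 with celecoxib and 66.8% ± 2.26 with rofecoxib (SD, n = 8 each). Tgfb1 made up 14.5% ± 1.55, 13.7% ± 3.17 and 12.0% ± 1.94 in the same order, and Tgfb2 22.6% ± 3.17, 17.6% ± 3.33 and 21.2% ± 2.72. Of the summed latent binding protein level per length, Ltbp4 made up 50.0% ± 1.98 in controls, 51.4% ± 1.84 with celecoxib and 47.6% ± 3.27 with rofecoxib. These shares were not tested, and they overlapped between the groups. All of them rest on the longest coding transcript, and the SDs do not cover that choice. For Tgfb1 this length was 2175 bases, against 5042 with all annotated exons, while for Tgfb3 both were 3383. With all annotated exons the Tgfb1 share would be lower. The Ltbp4 share would be higher, as its length grew less (5386 to 6463 bases) than those of Ltbp1 (6671 to 10691) and Ltbp3 (5190 to 9069).

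Against control aortas, neither drug changed any of the 10 genes past the threshold, an adjusted p under 0.05 in edgeR's quasi-likelihood test with Benjamini-Hochberg adjustment over the 14451 genes. With celecoxib 0 of 10 were called, where 1.41% of all genes were called (204 genes, 64.7% of them higher, or 54.6% with unscaled library totals). With rofecoxib 0 of 10 were called, where 5.3% of all genes were called (766 genes). At an unadjusted p under 0.05, the counts were 3 with celecoxib (Tgfb3, Tgfbr2 and Tgfbr3) and 5 with rofecoxib (Tgfb1, Tgfbr1, Ltbp1, Ltbp2 and Ltbp3), beside 2504 and 3916 of the 14451 genes. With GC correction edgeR again called 0 of the 10 genes with either drug, where 2.05% of all genes were called with celecoxib and 1.49% with rofecoxib. DESeq2 called 1 with celecoxib (Tgfbr3) and 1 with rofecoxib (Ltbp3). The median log2 fold change of the 10 genes was 0.021 with celecoxib and -0.065 with rofecoxib, beside -0.0053 and -0.00021 over all genes tested. Both comparisons use the same 8 controls, so they are not independent of each other. The sample titles also carry numbers that fall in a separate run for each group, with controls apart from both drug groups. What these numbers stand for is not given. If they follow handling, handling and group cannot be told apart.

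Between the drugs, 5 of the 10 genes were called, where 22.7% of all genes were called (3275 genes). Tgfb1, Ltbp2, Ltbp3 and Ltbp4 were higher with celecoxib (4 of 10, against 11.5% of all genes), and Tgfbr3 was lower (1 of 10, against 11.2%). The median log2 fold change of the 10 genes was 0.078, beside -0.0026 over all genes. In all 5 genes, each of the 8 celecoxib libraries lay beyond the rofecoxib mean, yet the ranges of the groups overlapped. A GC correction removed each library's smooth trend of expression on transcript GC content. After it, 3 of the 10 genes were called (Tgfb1, Ltbp2 and Tgfbr3), where 9.77% of all genes were called (1412 genes). Without celecoxib 7, celecoxib 8, rofecoxib 7 and rofecoxib 8, the 4 libraries with the most extreme GC slopes, 0 of the 10 genes were called in edgeR's test, with 3 at an unadjusted p under 0.05 (Tgfb1, Tgfbr3 and Ltbp2), as were 3046 of all genes. That comparison was chosen after the data had been seen, has 6 libraries per drug group and called 237 genes in all.

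**Figure D2:**
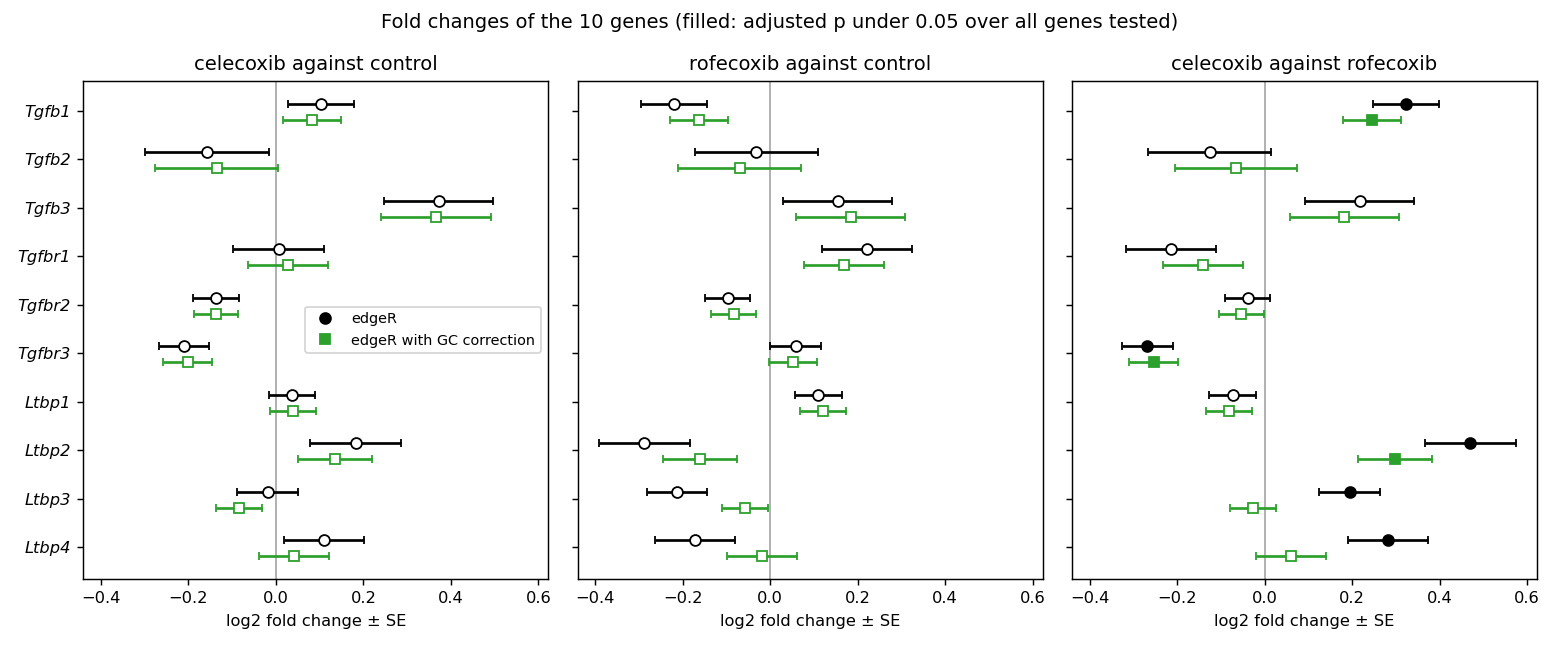
Log2 fold change ± SE of each gene in the 3 comparisons, without (black circles) and with (green squares) GC correction; filled symbols have an adjusted p under 0.05. Filled symbols appear between the drugs and nowhere else: 5 without and 3 with the correction.

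Tgfb1, the ligand best known from platelets and immune cells, lies on chromosome 7 (mm9 chr7:26471819-26490298). Its level ran from 32.8 to 40.9 CPM in controls (median 38.6), from 35.99 to 48.7 with celecoxib (median 38.6) and from 27.0 to 36.6 with rofecoxib (median 32.8). Celecoxib 7 and celecoxib 8, at 48.7 and 47.2 CPM, stood above all other libraries, and rofecoxib 7 and rofecoxib 8, at 28.0 and 27.0 CPM, were the lowest of all. Of the celecoxib libraries, 7 of 8 lay above every rofecoxib library. Between the drugs the log2 fold change was 0.32 ± 0.08 (SE, adjusted p = 0.0056 in edgeR), a level 25.1% higher with celecoxib. With GC correction it was 0.25 ± 0.07 (adjusted p = 0.0222), and without the 4 extreme libraries 0.16 (adjusted p = 0.16). Against control the log2 fold changes were 0.10 ± 0.08 with celecoxib (adjusted p = 0.491) and -0.22 ± 0.08 with rofecoxib (adjusted p = 0.0729).

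Tgfb2, the ligand that depends most on betaglycan for binding its receptors, lies at chr1:188446863-188530073. Its range was 107 to 184 CPM in controls (median 141), 86.1 to 181 with celecoxib (median 120.0) and 92.3 to 176 with rofecoxib (median 135). The groups covered nearly the same span. The log2 fold change was -0.16 ± 0.14 with celecoxib (95% interval -0.45 to 0.13) and -0.03 ± 0.14 with rofecoxib (-0.32 to 0.26), and -0.13 ± 0.14 between the drugs (-0.42 to 0.16).

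Tgfb3, the most abundant ligand here per length, lies at chr12:87397492-87420193. It ran from 208 to 300.3 CPM in controls (median 253), from 242 to 482 with celecoxib (median 313) and from 223 to 366 with rofecoxib (median 284). Celecoxib 3 and celecoxib 2, at 482 and 440.1 CPM, were the highest libraries of all, and 5 of 8 celecoxib libraries exceeded every control. The log2 fold change with celecoxib was 0.37 ± 0.12, with an unadjusted p of 0.0064 and an adjusted p of 0.125 in edgeR. It was 0.15 ± 0.12 with rofecoxib (adjusted p = 0.433) and 0.22 ± 0.12 between the drugs (adjusted p = 0.214). With GC correction these values were 0.37, 0.18 and 0.18.

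**Figure D3:**
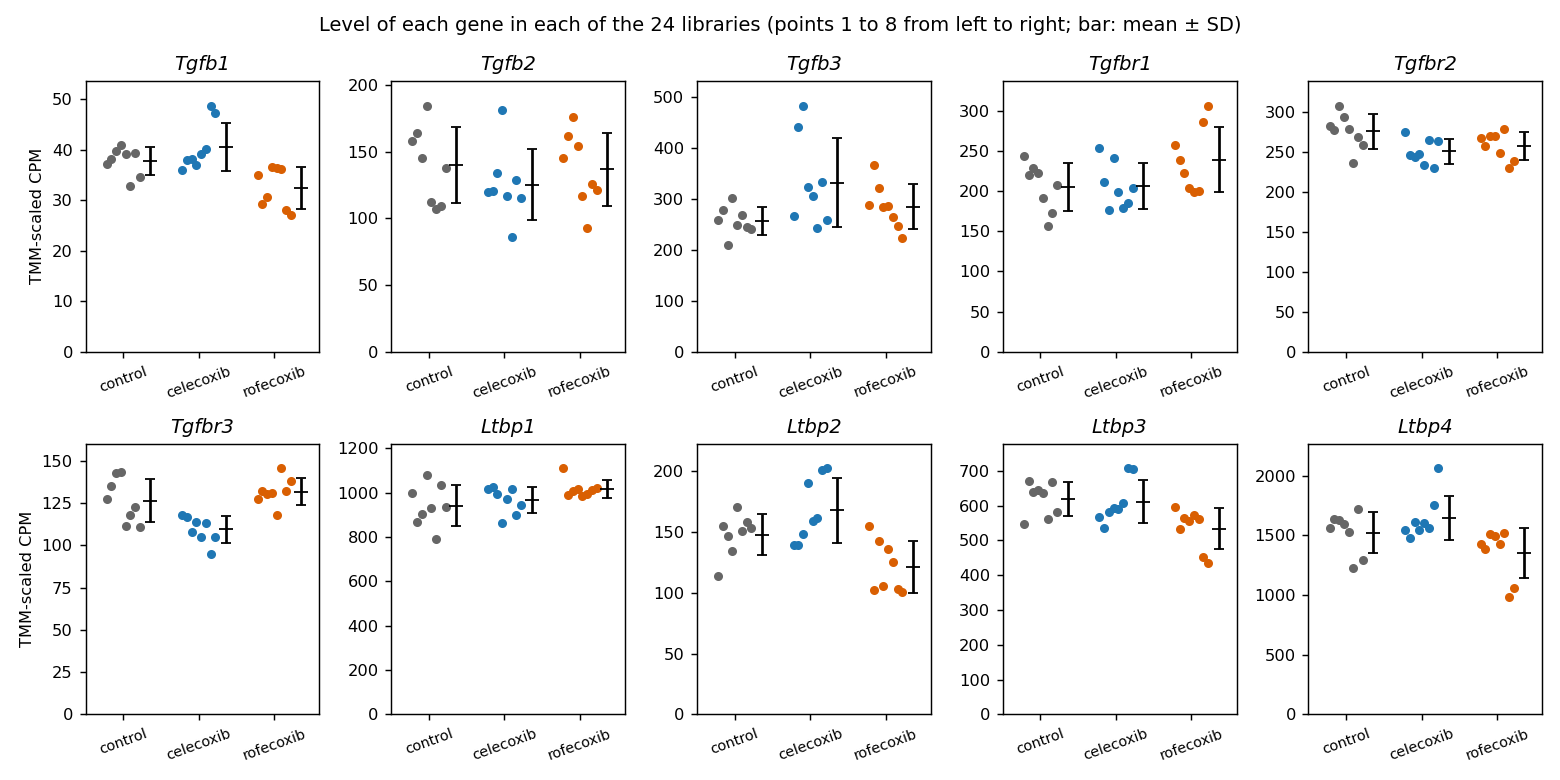
TMM-scaled CPM of the 10 genes in each library; points run from replicate 1 on the left to 8 on the right within a group, and bars are mean ± SD. Celecoxib 7 and 8 are high and rofecoxib 7 and 8 low for Tgfb1, Ltbp3 and Ltbp4, while Tgfbr3 shows 8 celecoxib libraries below the rofecoxib mean.

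Tgfbr1, the type I receptor kinase also called ALK5, lies at chr4:47365892-47428005. Its level ran from 157 to 244 CPM in controls (median 214), from 177 to 254 with celecoxib (median 202) and from 199 to 307 with rofecoxib (median 231). Rofecoxib 8 and rofecoxib 7, at 307 and 286 CPM, were the highest of all libraries, and control 6 at 157 CPM was the lowest. The log2 fold change with rofecoxib was 0.22 ± 0.10 (adjusted p = 0.171) and between the drugs -0.21 ± 0.10 (adjusted p = 0.136). With GC correction these became 0.17 and -0.14. With celecoxib it was 0.0060 ± 0.10 (95% interval -0.21 to 0.22), and its sign turned under 5 of the alternative settings beside those that left out 1 library.

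Tgfbr2, the type II receptor kinase that binds ligand first, lies at chr9:115993213-116084585. It ran from 235 to 307 CPM in controls (median 278), from 229.8 to 275 with celecoxib (median 246) and from 229 to 278 with rofecoxib (median 262). All 8 celecoxib libraries lay below the control mean of 275 CPM, but only 2 lay below every control. Its log2 fold change was -0.14 ± 0.05 with celecoxib (unadjusted p = 0.0147, adjusted p = 0.174 in edgeR), -0.10 ± 0.05 with rofecoxib (adjusted p = 0.226) and -0.04 ± 0.05 between the drugs (adjusted p = 0.632).

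Tgfbr3, betaglycan, is the accessory receptor that presents ligand to Tgfbr2 and lies at chr5:107535387-107718850. It ran from 111 to 143 CPM in controls (median 125), from 94.9 to 118 with celecoxib (median 111) and from 118 to 146 with rofecoxib (median 131). The drug groups barely touched: celecoxib 1, the highest celecoxib library at 118.3 CPM, overlapped rofecoxib 5, the lowest rofecoxib library at 117.9 CPM. Between the drugs the level was 16.9% lower with celecoxib, a log2 fold change of -0.27 ± 0.06 (adjusted p = 0.0035 in edgeR). It was -0.25 ± 0.06 with GC correction (adjusted p = 0.0088) and -0.22 without the 4 extreme libraries (adjusted p = 0.0781). Against control the log2 fold change with celecoxib was -0.21 ± 0.06, with an unadjusted p of 0.0013 and an adjusted p of 0.0651. It passed without control 5 (adjusted p = 0.0374) and in DESeq2 (adjusted p = 0.0235). With rofecoxib it was 0.06 ± 0.06 (adjusted p = 0.537).

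Ltbp1, which binds latent TGF-beta and fibrillin, lies at chr17:75404706-75792054. It ran from 789.9 to 1078 CPM in controls (median 932), from 863 to 1024 with celecoxib (median 984) and from 983 to 1109 with rofecoxib (median 1011). All 8 rofecoxib libraries lay above the control mean of 942 CPM, and rofecoxib 1 at 1109 CPM was the highest of all. Its log2 fold change was 0.11 ± 0.05 with rofecoxib (unadjusted p = 0.0479, adjusted p = 0.181 in edgeR), 0.04 ± 0.05 with celecoxib (adjusted p = 0.764) and -0.07 ± 0.05 between the drugs (adjusted p = 0.336).

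Ltbp2, the member of its family that does not bind latent TGF-beta, is a component of microfibrils and lies at chr12:86123960-86217684. It ran from 114 to 171 CPM in controls (median 152), from 139 to 202 with celecoxib (median 160.5) and from 100.3 to 155 with rofecoxib (median 115). Celecoxib 8, celecoxib 7 and celecoxib 4, at 202, 201 and 191 CPM, stood above all other libraries, and 5 of 8 celecoxib libraries exceeded every rofecoxib library. Between the drugs the level was 38.5% higher with celecoxib, a log2 fold change of 0.47 ± 0.10 (adjusted p = 0.0041 in edgeR). With GC correction it was 0.30 ± 0.08 (adjusted p = 0.029), and without the 4 extreme libraries 0.29 (adjusted p = 0.129). Against control the values were 0.18 ± 0.10 with celecoxib (adjusted p = 0.370) and -0.29 ± 0.10 with rofecoxib (adjusted p = 0.0846).

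Ltbp3, a binder of latent TGF-beta linked to bone and tooth development, lies at chr19:5740702-5758734. It ran from 548 to 671 CPM in controls (median 638), from 535 to 707 with celecoxib (median 593) and from 436 to 597 with rofecoxib (median 559). Celecoxib 7 and celecoxib 8 were highest at 707 and 704 CPM and rofecoxib 8 and rofecoxib 7 lowest at 436 and 453 CPM, while the other celecoxib and rofecoxib libraries overlapped widely. The log2 fold change between the drugs was 0.19 ± 0.07 (adjusted p = 0.0458 in edgeR), and the call was lost in 18 of the 24 fits that left out 1 library (all but those without celecoxib 1, celecoxib 2, control 1, control 6, rofecoxib 1 or rofecoxib 5). With GC correction its sign turned, to -0.03 ± 0.05 (adjusted p = 0.803). Against control it was -0.02 ± 0.07 with celecoxib (adjusted p = 0.914) and -0.21 ± 0.07 with rofecoxib (adjusted p = 0.063, or 0.0368 in DESeq2), the latter being -0.06 ± 0.05 with GC correction.

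Ltbp4, the most abundant of the 10 transcripts, lies at chr7:28089953-28122913. It ran from 1226 to 1720.3 CPM in controls (median 1580.0), from 1479.7 to 2062 with celecoxib (median 1581) and from 986 to 1523 with rofecoxib (median 1429.6). Rofecoxib 7 and rofecoxib 8, at 986 and 1055 CPM, stood apart from the other 6 rofecoxib libraries, which began at 1385 CPM, and celecoxib 8 was the highest at 2062 CPM. The log2 fold change between the drugs was 0.28 ± 0.09 (adjusted p = 0.0302 in edgeR). The call was lost without celecoxib 7 (adjusted p = 0.0611), celecoxib 8 (0.0850), rofecoxib 7 (0.0699) or rofecoxib 8 (0.0765). With GC correction the value was 0.06 ± 0.08 (adjusted p = 0.681). Against control it was 0.11 ± 0.09 with celecoxib (adjusted p = 0.559) and -0.17 ± 0.09 with rofecoxib (adjusted p = 0.225).

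**Figure D4:**
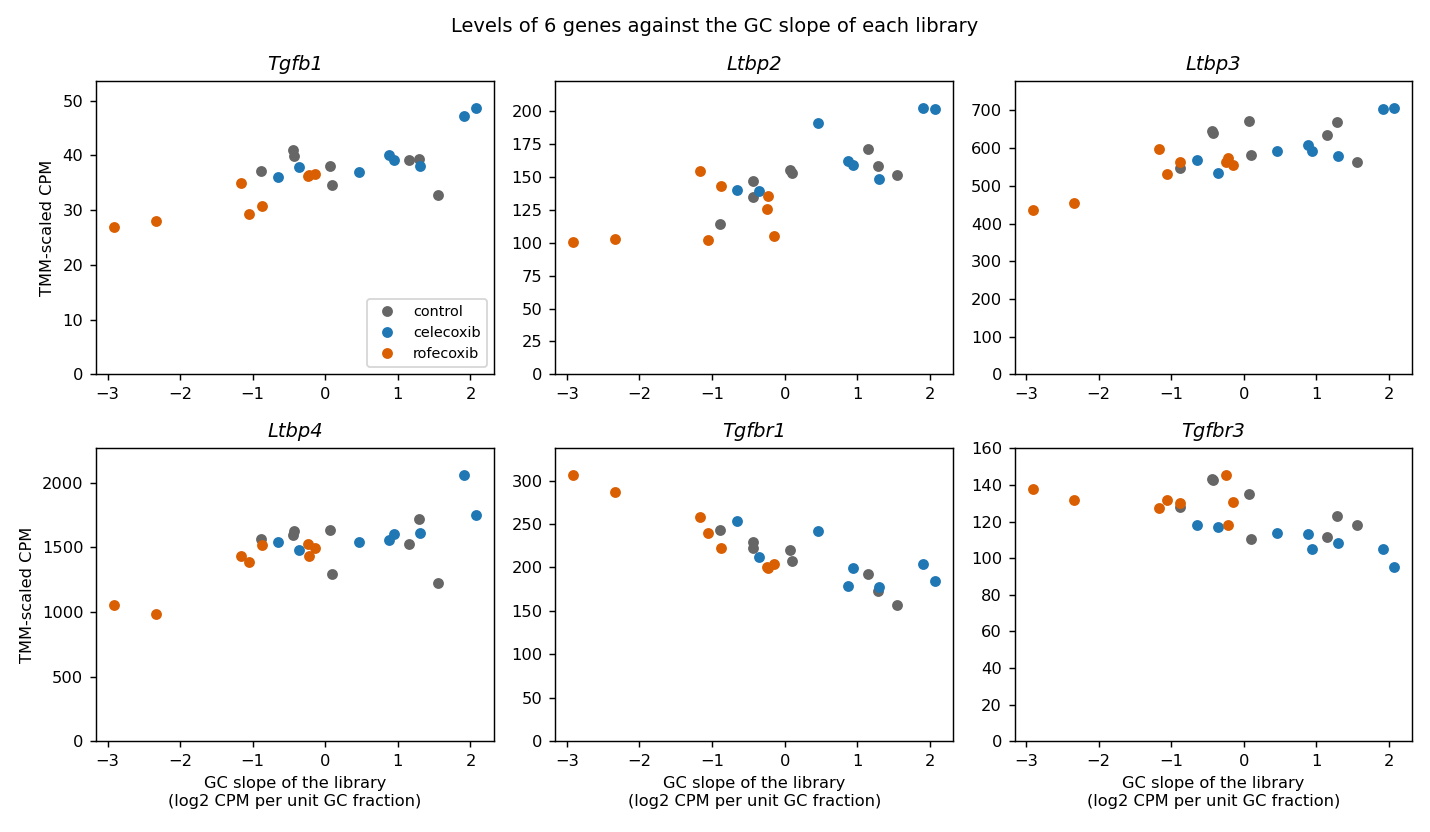
TMM-scaled CPM of 6 of the genes against the GC slope of each library, in log2 CPM per unit of transcript GC fraction; each point is 1 library, coloured by group. Rofecoxib 7 and 8, at the left end, are lowest for Tgfb1, Ltbp3 and Ltbp4 and highest for Tgfbr1, and celecoxib 7 and 8, at the right end, are highest for Tgfb1, Ltbp2, Ltbp3 and Ltbp4.

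The 10 genes differed in the GC content of their own transcripts, and the 4 called higher with celecoxib had the 4 highest values: 61.2% in Ltbp4, 60.9% in Ltbp3, 58.4% in Ltbp2 and 54.7% in Tgfb1. The lowest were Tgfbr1 at 48.0% and Tgfb2 at 48.6%, and Tgfbr3 had 51.0%. The part of the libraries' GC slopes in these differences between the drugs was not tested beyond the correction and the left-out libraries, whose values stand with each gene.

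Deviations from the group mean, in log2 CPM over the 24 libraries, described how the genes varied together within groups. Pearson's r was 0.85 between Ltbp3 and Ltbp4, 0.85 between Tgfb1 and Ltbp3, 0.80 between Tgfb1 and Ltbp4 and 0.75 between Ltbp2 and Ltbp3. The most negative of the 45 pairs were Tgfbr3 with Ltbp2 at -0.46 and Tgfbr1 with Ltbp3 at -0.43. The libraries' GC slopes are part of these deviations. Among all genes tested, the 2 most like each gene by this measure were Spryd3 (r = 0.91) and Tmem104 (0.87) for Tgfb1, Gfod1 (0.87) and Ctgf (0.85) for Tgfb2, and Rapgef4 (0.83) and Adamts8 (0.76) for Tgfb3. For the receptors they were Sec63 (0.93) and Map3k2 (0.92) for Tgfbr1, Mbtps1 (0.84) and Scara3 (0.79) for Tgfbr2, and Upb1 (0.81) and Nfe2l2 (0.81) for Tgfbr3. For the binding proteins they were Gja6 (0.83) and Mrvi1 (0.82) for Ltbp1, Heatr7a (0.83) and Dmpk (0.82) for Ltbp2, Cic (0.94) and Plbd2 (0.93) for Ltbp3, and Lrp1 (0.91) and Gaa (0.90) for Ltbp4.

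Around the 10 genes, 7 lists covered further steps of the pathway. For these lists, the fit without the 4 libraries with the most extreme GC slopes is not given. Over all genes that fit called 237 between the drugs, beside 3275 with all 24 libraries. Among genes that free the ligand from its latent complex, 0 of 18 tested were called with celecoxib (1.41% of all genes) and 3 with rofecoxib (5.3%). Furin, which cuts the propeptide from the ligand, fell with rofecoxib by 0.25 on the log2 scale (SE 0.06, adjusted p = 0.0323 in edgeR), from 118 ± 7.75 to 99.3 ± 9.32 CPM with no overlap of the groups. Bmp1, a protease that cuts Ltbp1, was called at -0.22 ± 0.06 (adjusted p = 0.0400), and Itgb1, an integrin subunit, at 0.20 ± 0.06 (adjusted p = 0.0461). None of these 3 was called after GC correction. Between the drugs 6 of 18 were called (22.7% of all genes), 4 higher with celecoxib and 2 lower. Bmp1 was higher by 0.33 ± 0.06 (adjusted p = 0.0016), at 256 to 338 CPM against 205 to 255 CPM, and Itgav, the integrin subunit that binds the latent propeptide, was lower, at -0.43 ± 0.11 (adjusted p = 0.0107). These 2 were also called after GC correction, at 0.23 and -0.44.

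Of 13 microfibril and elastic fibre genes tested, 0 were called with celecoxib (1.41% of all genes), 2 with rofecoxib (5.3%) and 2 between the drugs (22.7%). In both cases these were Adamtsl2 and Adamtsl4, secreted proteins that bind fibrillin. Adamtsl2 fell with rofecoxib by 0.76 (SE 0.16, adjusted p = 0.0147 in edgeR), from 46.6 ± 11.9 to 27.5 ± 5.24 CPM. With celecoxib it was at 56.4 ± 13.1 CPM, and every celecoxib library exceeded every rofecoxib library (log2 fold change 1.04 ± 0.16, adjusted p = 0.0011). Adamtsl4 was called in the same directions, at -0.28 ± 0.07 with rofecoxib (adjusted p = 0.0319) and 0.40 ± 0.07 between the drugs (adjusted p = 0.0013). After GC correction the call against control was lost for Adamtsl4 and not for Adamtsl2, and both differed between the drugs.

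Of 14 secreted binders and accessory receptors, 0 were called with celecoxib (1.41% of all genes), 3 with rofecoxib (5.3%) and 6 between the drugs (22.7%). After GC correction 2 were called with celecoxib, Fst and Fstl3. Fmod, fibromodulin, a small proteoglycan that binds TGF-beta, fell with rofecoxib by 0.75 (SE 0.16, adjusted p = 0.0153 in edgeR), from 289.7 ± 45.7 to 172 ± 49.6 CPM, and was also called after GC correction. Acvrl1, the endothelial type I receptor ALK1, was called at -0.21 ± 0.06 with rofecoxib (adjusted p = 0.0475, and 0.362 at -0.09 with GC correction) and at 0.41 ± 0.06 between the drugs (adjusted p = 9.6e-04), where celecoxib libraries ran from 112 to 147 CPM and rofecoxib libraries from 84.6 to 103 CPM. Fstl3, which binds activins, was higher with celecoxib than with rofecoxib by 0.60 ± 0.11 (adjusted p = 0.0016). Bambi, a pseudoreceptor without a kinase, was lower, at -0.67 ± 0.15 (adjusted p = 0.0042), at 26.3 to 37.6 CPM against 43.1 to 59.2 CPM. All of Acvrl1, Fstl3, Fmod and Bambi were called between the drugs after GC correction as well. Tgfbi, a matrix protein, was called with rofecoxib at -0.54 ± 0.15 (adjusted p = 0.0458) and not after GC correction.

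Of 20 SMADs and their regulators, 0 were called with celecoxib (1.41% of all genes) and 2 with rofecoxib (5.3%): Pmepa1, a transmembrane inhibitor of the pathway, at -0.29 ± 0.07 (adjusted p = 0.0223 in edgeR), and Trim33, a ubiquitin ligase that acts on Smad4, at 0.22 ± 0.07 (adjusted p = 0.0481). Between the drugs 6 of 20 were called (22.7% of all genes), 4 higher with celecoxib, Pmepa1 at 0.35 ± 0.07 (adjusted p = 0.0018) and the corepressor Tgif2 at 0.39 ± 0.11 (adjusted p = 0.0151) among them. Trim33 (-0.22 ± 0.07) and the phosphatase gene Ppm1a (-0.10 ± 0.03) were lower. After GC correction 0 of 20 were called in any of the 3 comparisons by edgeR.

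Of 29 target genes tested, 2 were called with celecoxib (1.41% of all genes), 7 with rofecoxib (5.3%) and 11 between the drugs (22.7%). The lists share some genes, Pmepa1 and Tgfbi among them, so some calls counted above are counted again here. Acta2 and Tagln, contractile genes of smooth muscle, were called higher with both drugs in the fit without marker scores. With the skeletal muscle score of each library in the fit, 1 gene was called with celecoxib, and it was lower. Neither rise with celecoxib was therefore called in that fit. With rofecoxib it called 16 genes, 3 of them higher. Acta2 was at 16024 ± 1845 CPM in controls, 19796 ± 1699 with celecoxib (0.30 ± 0.07, adjusted p = 0.035 in edgeR) and 19290 ± 1940 with rofecoxib (0.27 ± 0.07, adjusted p = 0.036, or 0.0738 with GC correction). Tagln was at 7476 ± 663 CPM in controls, 8859 ± 893 with celecoxib (0.24 ± 0.06, adjusted p = 0.0391) and 8965 ± 195 with rofecoxib (0.26 ± 0.06, adjusted p = 0.0185), where all 8 libraries exceeded every control. Both genes also mark smooth muscle, whose 10 markers summed to a median of 39389 CPM in controls, 45594 with celecoxib and 45351 with rofecoxib. The 5 targets that fell with rofecoxib included Col1a1, which encodes a chain of type I collagen, by 0.65 (SE 0.13, adjusted p = 0.0119), from 2392 ± 483 to 1519 ± 243 CPM, and Timp1, a protease inhibitor, by 0.41 (SE 0.10, adjusted p = 0.0249). Between the drugs, Spsb1 (0.52 ± 0.10), Snai1 (0.79 ± 0.15) and Col1a1 (0.60 ± 0.13) were higher with celecoxib, with adjusted p of 0.0017, 0.0018 and 0.0035, also when GC was corrected.

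**Figure D5:**
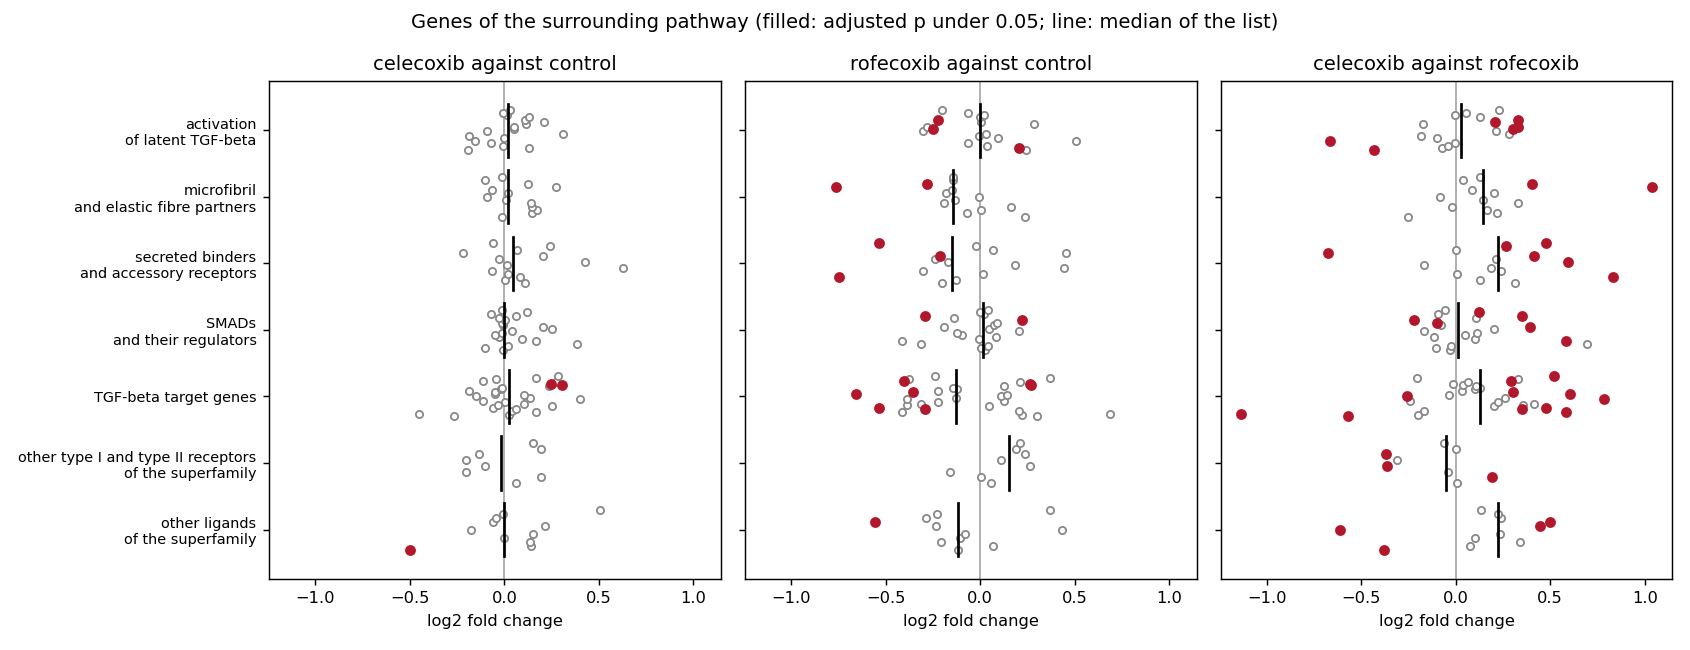
Log2 fold changes of the genes of the 7 surrounding lists in the 3 comparisons; each point is 1 gene, filled where the adjusted p is under 0.05, and the line is the median of the list. Filled points are few against control with celecoxib (Acta2, Tagln and Bmp2) and most numerous between the drugs.

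Of 8 other receptors of the superfamily, 0 were called with celecoxib (1.41% of all genes) and 0 with rofecoxib (5.3%). Between the drugs Bmpr1a (-0.37 ± 0.09, adjusted p = 0.0056 in edgeR) and Acvr2a (-0.37 ± 0.09, adjusted p = 0.0079) were lower and Acvr1b (0.19 ± 0.06, adjusted p = 0.0247) higher with celecoxib. These 3 calls of 8 stand beside 22.7% of all genes. Acvr1b was not called after GC correction (0.14, adjusted p = 0.129). Of 11 other ligands, 1 was called with celecoxib (1.41% of all genes) and 1 with rofecoxib (5.3%). Bmp2 fell with celecoxib by 0.50 (SE 0.12, adjusted p = 0.0346 in edgeR), from 21.1 ± 4.86 to 14.95 ± 2.14 CPM. Gdf10 fell with rofecoxib by 0.56 (SE 0.13, adjusted p = 0.0242), from 280.4 ± 54.2 to 190.4 ± 43.7 CPM. Both calls were made after GC correction too. Of these 11 ligands 4 were called between the drugs (22.7% of all genes), and Inhba and Inhbb were not after GC correction. Several calls against control did not hold in every fit that left out 1 of the 24 libraries. With rofecoxib, those of Timp1 (without control 5 or control 7), Pmepa1 (also rofecoxib 8), Adamtsl4 and Gdf10 (also rofecoxib 7 and rofecoxib 8) were lost in 2, 3, 4 and 4 fits. Furin lost its call in 6 fits, Acta2 in 7, Bmp1 in 11, Tgfbi in 13, Acvrl1 in 14, and Itgb1 and Trim33 in 16 each. With celecoxib, Bmp2 lost its call in 8 fits, Acta2 in 10 and Tagln in 13. Those of Adamtsl2, Fmod, Col1a1 and Tagln with rofecoxib were lost in none of the fits that left out 1 library. Over all genes, 37 were called with rofecoxib without both rofecoxib 7 and rofecoxib 8, and 16 with the skeletal muscle score. The calls of these genes in those fits are not given here. Between the drugs, Ppm1a lost its call in 8 fits, Acvr1b and Inhba in 5 each and Trim33 in 1 (without rofecoxib 8). Without both control 6 and rofecoxib 2, neither Acta2 nor Tagln was called with celecoxib in edgeR's test. With rofecoxib this left 3 of 29 targets (Tagln, Col1a1 and Col1a2), 1 of 14 binders (Fmod), 0 of 18 genes that free the ligand and 0 of 20 SMADs and regulators. Over all genes that fit called 215 with rofecoxib, beside 766 with all 24 libraries. Medians of the 7 lists between the drugs ran from -0.05 for the other receptors to 0.23 for the secreted binders, beside -0.0026 over all genes.

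The pathway genes and the 10 genes themselves are made by several cell types of the vessel wall, and in bulk tissue fewer cells of a type and less RNA per cell cannot be told apart. The 10 fibroblast and adventitia markers, none of them at 0 in all libraries, summed to 5747 to 8161 CPM in controls (median 6992), 6108 to 8415 with celecoxib (median 7304) and 3829 to 6874 with rofecoxib (median 5957). With the fibroblast score of each library in the fit, 3 of the 10 genes were called between the drugs: Tgfb1 (0.29), Tgfbr3 (-0.32) and Ltbp2 (0.49). Over all genes that fit called 3096 between the drugs, beside 3275 without the score. The 10 macrophage markers summed to medians of 310 CPM in controls, 279 with celecoxib and 247 with rofecoxib, and their part in these results was not tested.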

How the data were processed

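The submitters' processing notes list CASAVA 1.8.2, STAR 2.5.1b and the mm9 build. The authors deposited whole-number counts per gene in 1 table of 25941 genes and 24 libraries. The counting tool, its use of strand and the step that brought the library totals within 0.164% of each other were not given in the sources used here. Totals may therefore differ from sequencing depth.

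Counts were tested with edgeR 4.0.16 in R 4.3.3: filterByExpr left 14451 genes, TMM factors ran from 0.959 to 1.03, and a robust quasi-likelihood model with 1 mean per group was fitted to all 24 libraries (21 residual degrees of freedom). Adjustment was by Benjamini-Hochberg across the genes tested, and a gene was called at an adjusted p under 0.05. Each SE was taken as the size of the log2 fold change over the root of F. No 2 libraries of a group agreed within sampling noise. Transcript GC content came from GENCODE M21 for 97.4% of the genes tested. Alternatives were DESeq2 1.42.0, other scalings, no filter, GC correction, marker scores as covariates, a replicate block and left-out libraries. The edgeR fit and the GC correction were tested on simulated counts.

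The 10 genes and the lists were chosen with earlier results of these data known. All 10 genes were named. Of each pathway list, at most 4 called genes per comparison were named, those with the smallest p, and the 2 most alike genes were those with the highest Pearson's r.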

Additional observations from a re-analysis of the deposited data

Results flagged for a closer look

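In 117 sets of 8 libraries (each named gene in each group), 2 held a library far from the other 7. Chance gives about 1 in 20, so this share was below what chance gives. They were Ltbp1 in rofecoxib 1, at 1109 CPM with the next library at 1019, and Ltbp4 in celecoxib 8, at 2062 CPM with the next at 1753.

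The other results singled out are differences between the drugs, each with an adjusted p under 0.05 in edgeR and given as log2 fold change, celecoxib against rofecoxib. Of the 10 genes these were Tgfb1 at 0.32, Ltbp2 at 0.47, Ltbp3 at 0.19, Ltbp4 at 0.28 and Tgfbr3 at -0.27. Of the genes that free latent ligand they were Bmp1 at 0.33, Furin at 0.30, Mmp14 at 0.21 and Itgav at -0.43, and of the microfibril genes Adamtsl2 at 1.04 and Adamtsl4 at 0.40. Of the binders and accessory receptors they were Acvrl1 at 0.41, Fmod at 0.83, Fstl3 at 0.60 and Bambi at -0.67. Of the SMAD regulators they were Pmepa1 at 0.35, Tgif2 at 0.39, Ppm1a at -0.10 and Trim33 at -0.22, and of the target genes Col1a1 at 0.60, Snai1 at 0.79 and Spsb1 at 0.52. Of the other receptors and ligands they were Acvr1b at 0.19, Acvr2a at -0.37, Bmpr1a at -0.37, Bmp2 at -0.38, Inhba at -0.61, Gdf10 at 0.50 and Inhbb at 0.45. Ltbp3, Ltbp4, Furin, Mmp14, Pmepa1, Tgif2, Ppm1a, Trim33, Acvr1b, Inhba and Inhbb were not called after GC correction. The doses of the drugs differed, and the GC slopes of the libraries differed between these groups.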

How the results depend on the processing

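The limits were the GC slopes, which moved with the drug groups, and counts of calls that 1 library could move. Genes called with celecoxib (204), with rofecoxib (766) and between the drugs (3275) became 86, 294 and 2420 with no filter on low counts and 479, 1493 and 3603 in DESeq2. With only the 2 groups compared in the fit they were 88, 461 and 3071, with GC correction 296, 216 and 1412, and without control 6 and rofecoxib 2 they were 231, 215 and 3192. With the brown adipocyte score in the fit they were 7, 412 and 3185, and with the skeletal muscle score 1, 16 and 3166. With the fibroblast score they were 272, 963 and 3096. Without rofecoxib 7 and rofecoxib 8 they were 210, 37 and 1326, and without these and celecoxib 7 and celecoxib 8 they were 90, 39 and 237, both chosen after seeing the data. The cause of these shifts was not tested.

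Of the 10 genes, 0 were called with celecoxib, but 1 in DESeq2 and 1 with the fibroblast score (Tgfbr3 in both), and 0 with rofecoxib, but 1 in DESeq2 (Ltbp3). Between the drugs 5 were called, but 3 with GC correction, 3 with the fibroblast score, 3 without rofecoxib 7 and rofecoxib 8, and 0 without the 4 libraries.

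Whether the replicate numbers of the labels pair the libraries was not tested. Same-numbered libraries correlated at -0.28 to 0.52. For celecoxib with control, rofecoxib with control and celecoxib with rofecoxib, 5, 3 and 4 of 8 pairs lay above 0.1. In the same order, 3, 1 and 0 of 8 correlated best with their own number. With the replicate block, 187, 653 and 3193 genes were called and 3 of the 10 between the drugs; with the block and GC correction, 344, 158 and 1537 genes, 1 of the 10 with celecoxib (Tgfbr3) and 2 between the drugs.

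Leaving out 1 library gave 42 (without celecoxib 5) to 312 genes (celecoxib 2) with celecoxib, 170 (control 7) to 1121 (control 4) with rofecoxib and 2147 (rofecoxib 8) to 3739 (celecoxib 2) between the drugs. Of the 10 genes it gave 0 to 1 with celecoxib (1 without control 5), 0 to 0 with rofecoxib and 3 to 5 between the drugs (3 without celecoxib 7, celecoxib 8, rofecoxib 7 or rofecoxib 8).

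Some signs turned, none in a called value but Ltbp3. Ltbp3 between the drugs was -0.026 with GC correction and -0.025 with the block as well. Tgfbr1 with celecoxib was -0.015 with library totals, -0.044 without control 6 and rofecoxib 2, -0.0024 with only the 2 groups, and -0.030 and -0.0041 with the brown adipocyte and fibroblast scores. Tgfb2 with rofecoxib was 0.017 without rofecoxib 7 and rofecoxib 8, and 0.017 without the 4 libraries. Leaving out 1 library moved Tgfb2 with rofecoxib over -0.091 to 0.041, Tgfbr1 with celecoxib over -0.044 to 0.045 and Ltbp3 with celecoxib over -0.052 to 0.0066.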
